A study of Mus musculus with 4 samples.

Results

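Expression of the MHC class II genes was examined across the cell types of gonadal adipose tissue of aged mice. The 10 genes were H2-Aa, H2-Ab1, H2-Eb1, Cd74, Ciita, H2-DMa, H2-DMb1, H2-DMb2, H2-Oa and H2-Ob, which were taken by gene symbol and all found among the 31054 features of the count tables. The stromal vascular fraction was isolated from 18-month-old male p16-CreERT2/R26-LSL-tdTomato mice, in which tamoxifen switches on tdTomato (Tom) in cells whose p16 promoter is active, so that Tom+ cells are p16high. All mice carried both alleles and received tamoxifen, so every group shares them, and how many mice gave each library is not given in the sources used here. Cells were sorted on CD45 and Tom, and each of the 4 combinations gave 1 single-cell RNA-seq library. There was therefore no replicate, no test between groups was made, and every interval below is a 95% interval that covers counting error only. Where 4 values are listed, those of the CD45- libraries come first and those of the CD45+ libraries last, with Tom+ before Tom- in each.

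MHC class II molecules display peptides from endocytosed proteins to CD4 T cells and are best known from dendritic cells, B cells and activated macrophages. H2-Aa and H2-Ab1 encode the alpha and beta chains of the I-A molecule, and H2-Eb1 encodes the beta chain of I-E. The invariant chain, encoded by Cd74, holds the peptide groove of new class II molecules until they reach the endosome. There the DM molecule (H2-DMa with H2-DMb1 or H2-DMb2) exchanges its remnant for other peptides, and the DO molecule (H2-Oa with H2-Ob) restrains DM. Ciita encodes the class II transactivator, the coactivator that most of these genes depend on in professional antigen-presenting cells.

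The libraries held between 64083756 and 139397501 UMIs (unique molecular identifiers, which count captured transcripts). After filtering, 13878 cells remained, with a median of 18331 to 19516 UMIs per cell in each library. Ptprc, which encodes CD45, lay between 187.6 and 245.8 CPM in all 4 libraries, so leukocytes and stroma were present under either CD45 label. CPM is the UMI count of a gene scaled to 1000000 UMIs in the library or class. The reporter followed its label, with tdTomato at 713.4 and 704.6 CPM in the Tom+ libraries and 20.7 and 23.1 CPM in the Tom- libraries. Between 26 and 4394 barcodes were shared by each pair of libraries, but at most 16 of them were kept as cells in both. The cells formed 45 clusters, of which 37 were named by fixed markers and grouped into 14 classes, and 8 clusters with 1554 cells kept no name. Class names end in -like because they rest on transcripts alone. The MHC class II genes and their pathway genes were left out of the genes used for clustering, so a class was not drawn by their levels.

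Of the genes examined, 8 form a single block on mouse chromosome 17 (mm10, GENCODE vM21). From the lower coordinate upwards these are H2-Oa (chr17:34092340-34095234), H2-DMa (chr17:34119541-34139101), H2-DMb2 (chr17:34143307-34151555), H2-DMb1 (chr17:34153072-34160230), H2-Ob (chr17:34238903-34254414), H2-Ab1 (chr17:34257689-34269419), H2-Aa (chr17:34282744-34287823) and H2-Eb1 (chr17:34305867-34316674), of which H2-Aa alone lies on the minus strand. Ciita lies apart at chr16:10480059-10528418 on the plus strand. Class II promoters are known for a pair of short elements, the X box and the Y box, bound by RFX and NF-Y, on which the transactivator assembles. The stretches below are shown because they hold the letters of that pair. It was found in 6 of the 7 genes searched by their RefSeq promoter windows (GRCm38.p6, 250 bases before to 50 after the start). Capitals mark AAC, a stretch of the X box, and GATTGG, the core of the Y box, with 24 to 31 bases of any kind allowed between them. The sequences run 5′ to 3′ on the strand of the gene.
H2-Aa, chr17:34287859-34287914, minus strand: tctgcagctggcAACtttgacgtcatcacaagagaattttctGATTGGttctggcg
H2-Eb1, chr17:34305766-34305820, plus strand: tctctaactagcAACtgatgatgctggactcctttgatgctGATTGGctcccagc
H2-DMb1, chr17:34153087-34153142, plus strand: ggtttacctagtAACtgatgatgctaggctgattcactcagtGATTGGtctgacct
H2-DMb2, chr17:34145116-34145171, plus strand: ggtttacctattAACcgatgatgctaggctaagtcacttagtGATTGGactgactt
H2-Oa, chr17:34092293-34092348, plus strand: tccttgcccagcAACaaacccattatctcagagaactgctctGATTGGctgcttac
H2-Ob, chr17:34238808-34238860, plus strand: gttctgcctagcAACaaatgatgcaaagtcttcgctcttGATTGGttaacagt
In these windows GATTGG began 44 to 91 bases before the annotated start. The spacing was 27 bases in 4 of the 6, 26 in H2-Eb1 and 24 in H2-Ob. Neither of the 2 windows of H2-DMa held the pair, and H2-Ab1 and Ciita had no window in the table. The pair was present on either strand in 1.7% of all 32851 promoter windows of the same length, and GATTGG alone in 16.1%. The letters searched were chosen after the sequences had been seen, and a match is a description of the sequence, not of binding.

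Across classes, the MHC class II genes peaked in dendritic cell-like and B cell-like cells. Over 10 genes and 4 libraries, 39 of 40 highest levels among classes of at least 20 cells lay in one of these classes, 19 in dendritic cell-like and 20 in B cell-like cells. H2-DMb1 in the library labelled CD45+ Tom+ was the exception, where macrophage-like cells had 108.5 CPM and B cell-like cells 96.8 CPM. That library held 15 dendritic cell-like cells, below the minimum of 20, and H2-DMb1 stood at 394.3 CPM in them. These cells also exceeded B cell-like cells in H2-Aa, H2-Ab1, H2-Eb1, Cd74 and H2-DMa, for which the B cell-like peak in that library rests on the minimum.

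**Figure D1:**
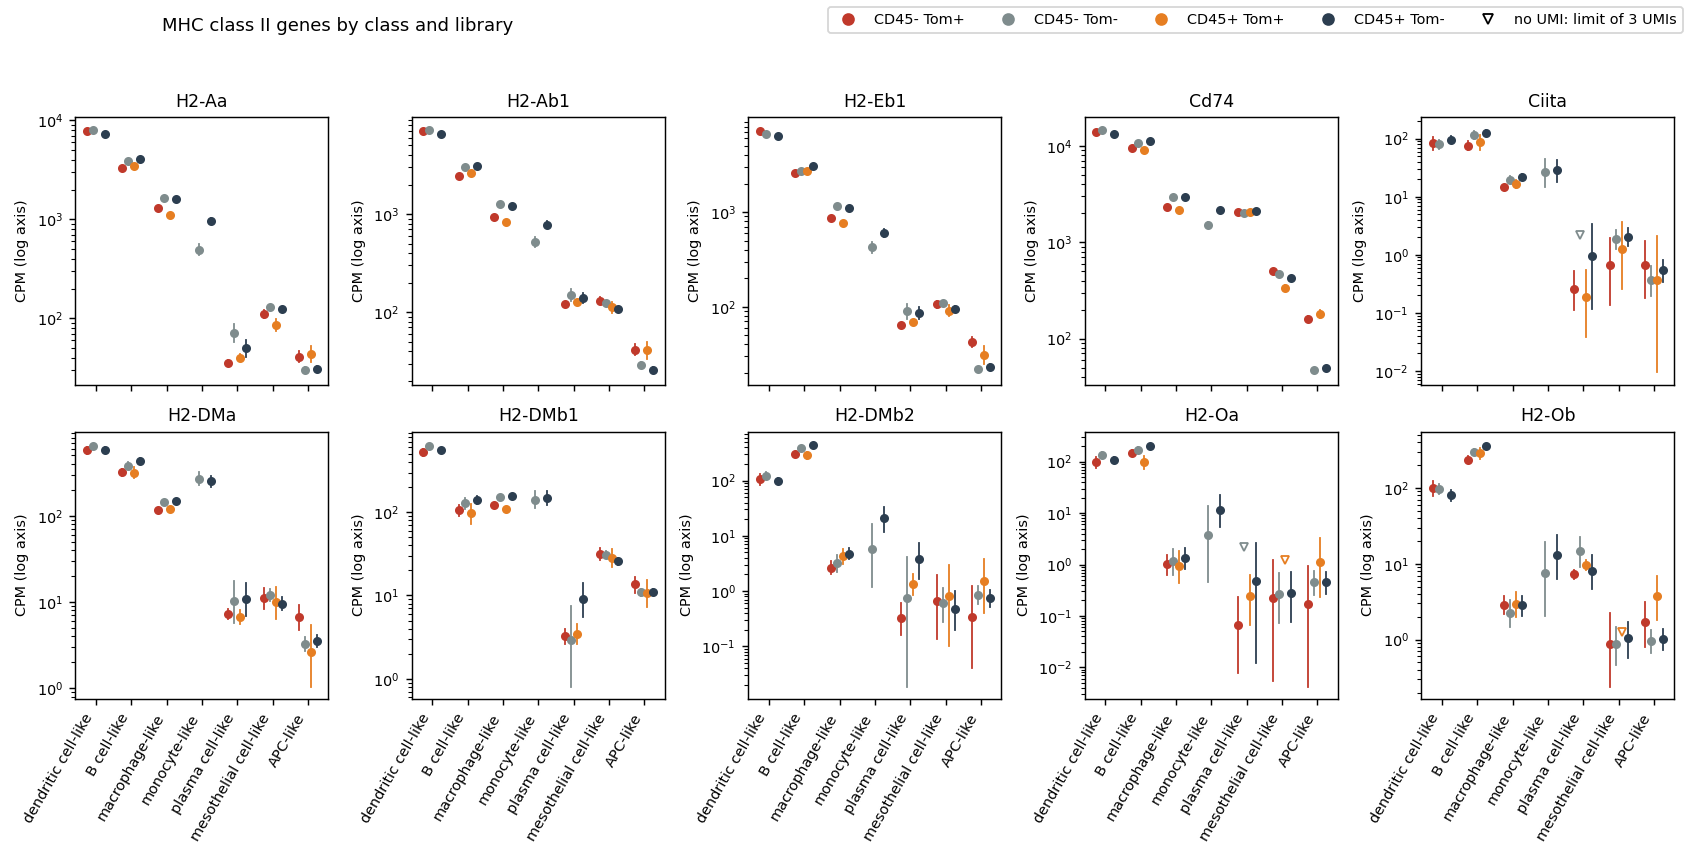
Level of each MHC class II gene (CPM, log axes) by class and library, for classes of at least 20 cells. Points are the UMIs of a gene summed over the cells of a class and scaled to CPM, bars are 95% Poisson intervals of counting error, and open triangles stand at the limit of 3 UMIs where a class had none. H2-Aa falls from 7299 to 7929 CPM in dendritic cell-like cells to 30.3 to 44.0 CPM in APC-like cells, while Cd74 stays near 2000 CPM in plasma cell-like cells, far above the other genes there.

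H2-Aa gave the clearest order of classes. Its level was 7748, 7929 and 7299 CPM in dendritic cell-like cells of the 3 libraries with at least 20 of them, and 6863 CPM in the 15 such cells of the library labelled CD45+ Tom+. Lists of 3 values for dendritic cell-like cells leave that library out. B cell-like cells followed with 3329, 3868, 3469 and 4059 CPM and macrophage-like cells with 1300, 1663, 1106 and 1615 CPM. No library of one of these classes reached the range of the next. Monocyte-like cells had 496.6 and 959.3 CPM in the Tom- libraries, the only ones with at least 20 of them, but this class was not stable. With a looser filter (500 genes, 20% mitochondrial share), with 4000 variable genes, and without shared barcodes, its H2-Aa level in the library labelled CD45- Tom- was 3303, 3232 and 2360 CPM. Mesothelial cell-like cells had 111.2, 131.8, 85.8 and 124.7 CPM. Plasma cell-like cells had 35.7, 71.6, 40.3 and 50.4 CPM, and adipose progenitor cell-like (APC-like) cells had 41.1, 30.3, 44.0 and 31.2 CPM, so that these last classes overlapped.

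The low end of this order can be set beside 3 classes that are not professional antigen-presenting cells. Whether these make class II themselves was not tested, so they are not a floor without expression. H2-Aa was at 57.6 to 114.4 CPM in T cell-like cells, at 51.2 to 102.5 CPM in mast cell-like cells and at 63.7 and 94.2 CPM in lymphatic endothelial cell-like cells of the Tom+ libraries. The APC-like range lay below all of these, and the mesothelial cell-like range overlapped all 3. After each cell was thinned to 2000 UMIs, H2-Aa was found in 5.66% to 8.85% of APC-like, 10.3% to 22.6% of mesothelial cell-like and 13.2% to 20.9% of T cell-like cells, against 98.5% to 100% of B cell-like cells. At full depth the share was 37.7% to 46.1% of APC-like cells, with a median of 21488 to 23475 UMIs per cell, and 35.1% to 50.8% of T cell-like cells, with 5967 to 7355 UMIs. The part of free RNA in these low levels was not tested.

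Dendritic cell-like cells consisted of 2 clusters. The larger, with 171 cells, was led by Xcr1, Cd209a and Plbd1, and all 9 markers of type 1 conventional dendritic cells were raised in it. Cd209a, Plbd1 and Mgl2, all among its leading genes, are type 2 markers, so the cluster was not taken as type 1 alone. The other, with 64 cells, was led by Ccl22 and Ccr7, a chemokine receptor of dendritic cells moving to lymph nodes. Over both clusters, 8 type 2 markers summed to 1909, 1856, 1762 and 1739 CPM. The 9 type 1 markers summed to 710.8, 1143, 639.2 and 1257 CPM, the third of each from 15 cells. In the Xcr1/Cd209a cluster, H2-Ab1 stood at 8992, 8303, 7563 and 7729 CPM and H2-DMb1 at 725.9, 785.0, 510.0 and 707.6 CPM, the third of each from 11 cells. In the Ccr7/Ccl22 cluster both were lower in the libraries with at least 20 cells, CD45- Tom- and CD45+ Tom-, with H2-Ab1 at 3077 and 2144 CPM and H2-DMb1 at 72.9 and 64.01 CPM. H2-DMa was likewise lower, at 781.1 and 721.9 CPM in the former against 161.9 and 98.3 CPM in the latter cluster. The gap was smaller for H2-DMb2, at 124.4 and 105.4 CPM against 116.0 and 73.2 CPM. Ciita was at 93.3 and 116.4 CPM in the Xcr1/Cd209a cluster and at 35.1 and 25.2 CPM in the Ccr7/Ccl22 cluster, the latter from 13 and 11 UMIs.

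Dendritic cell-like and B cell-like cells differed in the balance of chains. In all 4 libraries, 3 of the 10 genes were at least 2-fold higher in dendritic cell-like cells (H2-Ab1, H2-Eb1 and H2-DMb1) and 2 were at least 2-fold higher in B cell-like cells (H2-DMb2 and H2-Ob), against 16.4% of 7267 genes that met this rule in either direction. H2-DMb1 was 4.05- to 4.98-fold higher in dendritic cell-like cells. H2-DMb2 went the other way and was 2.85- to 5.01-fold higher in B cell-like cells, at 301.8, 385.2, 286.7 and 434.0 CPM. Levels of this pair carry a limit of their own. Of the 30-base windows in the last 500 bases, 25.9% of those of H2-DMb1 also occur in H2-DMb2. In the other direction 1.06% of those of each H2-DMb2 transcript occur in H2-DMb1. Reads could thus have been lost or shared between them, and by these shares more so for H2-DMb1. H2-Ob, a chain of the restraining DO molecule, was at 235.9, 296.7, 286.7 and 357.1 CPM in B cell-like cells. In dendritic cell-like cells it was at 99.1, 97.8 and 80.0 CPM. Its partner H2-Oa differed less, at 148.5, 170.1, 96.8 and 202.3 CPM in B cell-like and 96.4, 136.4 and 105.8 CPM in dendritic cell-like cells. Ciita was at 76.0, 116.7, 86 and 127.3 CPM in B cell-like cells and at 83.0, 80.3 and 96.2 CPM in dendritic cell-like cells. It was lower in the latter in the Tom- libraries, with log2 ratios of -0.54 (interval -0.88 to -0.20) under CD45- and -0.40 (interval -0.68 to -0.13) under CD45+, and not distinguishable in the library labelled CD45- Tom+, at 0.13 (interval -0.34 to 0.58).

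B cell-like cells were made of a cluster of 614 cells led by Ighd and Fcer2a and a cluster of 159 cells led by Ms4a1, Cd79a and Fcrl5. H2-Ob was at 311.6, 369.4, 318.2 and 428.8 CPM in the former and at 152.4, 168.7, 225.7 and 211.5 CPM in the latter, the third value from 15 cells, so the ranges did not overlap. H2-Oa behaved alike, with 119.7 to 235.3 CPM against 52.5 to 135.3 CPM, higher in the Ighd/Fcer2a cluster in each library. H2-DMb2, at 288.8, 408.0, 304.6 and 424.5 CPM against 316.1, 345.1, 252.0 and 453.2 CPM, showed no such order.

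The balance of the DM chains was set out as ratios. UMIs of H2-DMb1 per UMI of H2-DMa were 0.331, 0.335, 0.307 and 0.320 in B cell-like cells, and 0.918, 0.974 and 0.968 in dendritic cell-like cells. They were 1.04, 1.03, 0.911 and 1.04 in macrophage-like cells and 2.84, 2.55, 2.83 and 2.68 in mesothelial cell-like cells. B cell-like cells held more H2-DMb2, with 2.86, 3.01, 2.96 and 3.11 UMIs per UMI of H2-DMb1, against 0.174 to 0.202 in dendritic cell-like and 0.0214 to 0.0398 in macrophage-like cells. These are ratios of UMIs and not of transcripts per length, and the reads of H2-DMb1 and H2-DMb2 are subject to the limit given above.

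Cd74, at chr18:60803848-60812652 on the plus strand, was the most abundant of the 10 in dendritic cell-like, B cell-like, macrophage-like, monocyte-like, plasma cell-like, mesothelial cell-like and APC-like cells of every library with at least 20 of them. In mast cell-like cells of the library labelled CD45- Tom-, it was at 80.5 CPM and H2-Aa at 102.5 CPM. It was at 14025, 14588 and 13396 CPM in dendritic cell-like cells and 9424, 10617, 9162 and 11140 CPM in B cell-like cells. Its ratio to H2-Aa lay at 2.64 to 2.83 in B cell-like, 1.81 to 1.84 in dendritic cell-like and 1.77 to 1.95 in macrophage-like cells.

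In plasma cell-like cells Cd74 stood far above the other class II genes. H2-Ab1 came next, at 121.6, 149.1, 127.6 and 140.4 CPM, overlapping the 107.4 to 130.6 CPM of mesothelial cell-like cells. Cd74 was at 2084, 2015, 2071 and 2115 CPM, the widest interval being 1940 to 2092 CPM, next to 2301, 2983, 2156 and 2915 CPM in macrophage-like cells. All 10 genes were at least 2-fold lower than in B cell-like cells in each library, where 52.8% of 6263 genes also differed by 2-fold or more in the same direction in all 4. The size of the gap differed widely between the genes. Cd74 was 4.42- to 5.27-fold lower, H2-Ab1 20.3- to 22.3-fold lower and H2-Aa 54.0- to 93.3-fold lower. These gaps are in CPM, and Igkc alone took 304953 to 361954 CPM in plasma cell-like cells against 6853 to 54325 CPM in B cell-like cells. Plasma cell-like cells were also deeper, with a median of 35690 to 39400 UMIs per cell against 5287 to 6506 UMIs. The part of either in the gaps was not tested. Ciita had 8, 0, 3 and 2 UMIs in all plasma cell-like cells together, with the 0 allowing up to 2.21 CPM. Cd74 per UMI of H2-Aa was therefore 58.4, 28.1, 51.4 and 41.9. H2-Ob, at 7.30, 14.8, 9.63 and 8.09 CPM, exceeded its partner H2-Oa, which had 2, 0, 4 and 1 UMIs. The summed 9 B cell markers stood at 531.7 to 631.1 CPM in these cells, with 3 or 4 of the 9 at 10 CPM or more, against 4957 to 6036 CPM in B cell-like cells.

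Because the libraries held different cells, the same gene came from different sources. Of all H2-Aa UMIs in kept cells, 47.7%, 42.0%, 49.5% and 43.5% lay in macrophage-like cells, 10.7%, 29.7%, 10.2% and 25.0% in dendritic cell-like cells and 10.3%, 12.4%, 9.11% and 14.8% in B cell-like cells. Of Cd74 UMIs, 33.4% and 38.6% lay in plasma cell-like cells of the Tom+ libraries and 2.96% and 3.65% in those of the Tom- libraries. H2-DMb2 came mostly from B cell-like cells, with 67.4%, 64.9%, 59.5% and 71.6% of its UMIs. Clusters without a name held 26.5% and 25.0% of H2-Aa in the Tom+ libraries and 6.92% and 8.88% in the Tom- libraries. In the Tom+ libraries these included a cluster of 258 cells with both immunoglobulin and macrophage markers, 249 of them Tom+, and a cluster of 141 cells with macrophage and T cell markers.

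**Figure D2:**
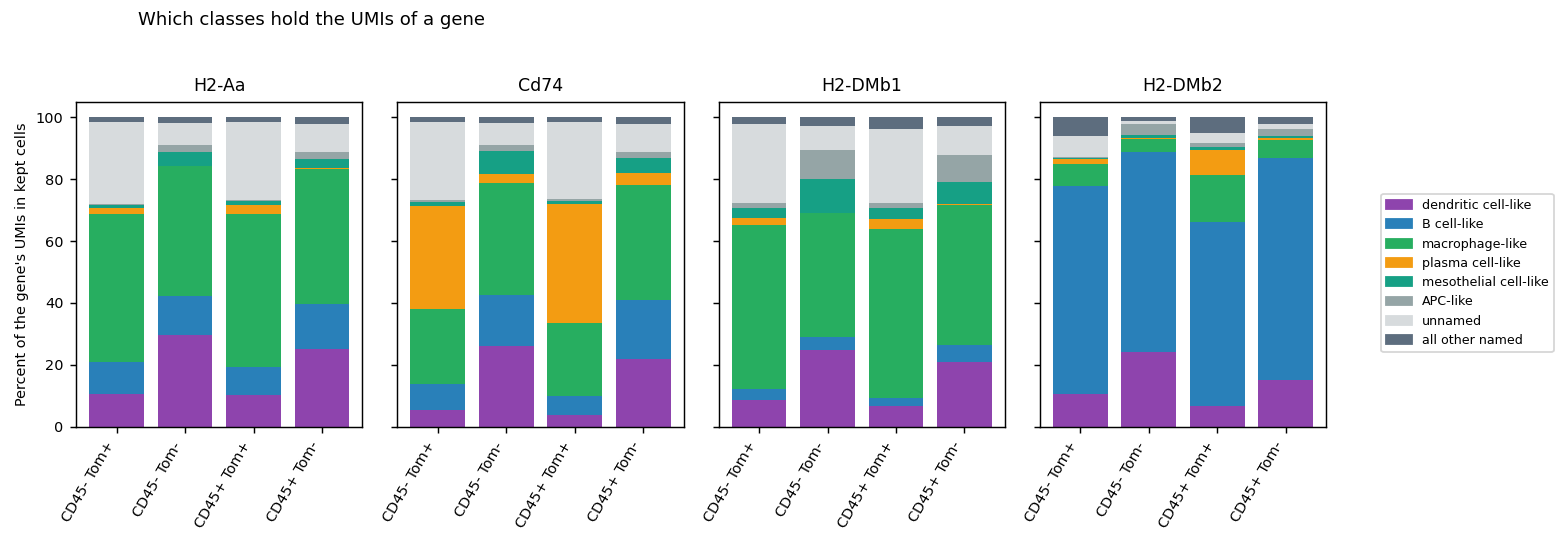
Share of the UMIs of H2-Aa, Cd74, H2-DMb1 and H2-DMb2 (percent of the UMIs of that gene in all kept cells of a library) by class, as stacked bars that sum to 100. Plasma cell-like cells take 33.4% and 38.6% of Cd74 in the Tom+ libraries and 2.96% and 3.65% in the Tom- libraries, and B cell-like cells take most of H2-DMb2 in each.

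Macrophage-like cells formed 8 clusters that differed in class II by over 10-fold. H2-Aa was highest in 2 of them. A cluster led by F13a1, Fcna and Retnla, with Mrc1 and Folr2, had 3071, 4732, 1957 and 4178 CPM. F13a1 and Folr2 were on the list of resident macrophage markers, as were the Marco and Vsig4 named below. A cluster led by Ccl24, F10 and Cx3cr1 with Ccr2, a chemokine receptor of monocyte-derived cells, had 3157, 3115, 4131 and 2949 CPM. These ranges overlapped each other and that of B cell-like cells. A cluster led by Gpnmb, with Trem2, markers of lipid-associated macrophages, stood lower at 951.2, 1326, 935.6 and 1398 CPM. At the low end were a cluster led by Marco and Vsig4, markers of resident macrophages, with 277.9, 498.8, 277.7 and 646.8 CPM, and a cluster led by Arg1, Slc7a2 and Olr1, with 349.6, 310.4, 135.3 and 247.4 CPM. Arg1 was also among the leading genes of the Marco/Vsig4 and Ccr2/Cx3cr1 clusters, and Olr1 of the former. Arg1 thus led in clusters of both low and high class II. Cycling macrophage-like cells, led by Birc5 and Ccna2, had 707.2, 735.5 and 681.7 CPM in the 3 libraries with at least 20 of them.

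The other genes largely kept this order. Cd74 was at 5049, 8309, 3543 and 6943 CPM in the F13a1/Mrc1 cluster and at 541.4, 543.4, 354.7 and 454.9 CPM in the Arg1/Olr1 cluster. Ciita was at 33.3, 65.0, 35.0 and 70.6 CPM in the former and at 1.63, 2.79, 0.914 and 0.987 CPM in the latter, from 4, 9, 1 and 4 UMIs. In the Ccr2/Cx3cr1 cluster it was at 44.0, 28, 59.6 and 29.5 CPM. H2-DMb2 and the DO genes stayed low in all of them. H2-DMb2 was highest in the Ccr2/Cx3cr1 cluster, at 13.8, 5.45, 29.8 and 11.3 CPM, and did not pass 8.47 CPM in the F13a1/Mrc1, Gpnmb/Trem2, Marco/Vsig4 or Arg1/Olr1 clusters. Over the whole macrophage-like class H2-Oa was at 1.01, 1.16, 0.947 and 1.35 CPM and H2-Ob at 2.86, 2.24, 2.95 and 2.83 CPM, whereas T cell-like cells had 4.68 to 9.64 CPM of H2-Oa.

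**Figure D3:**
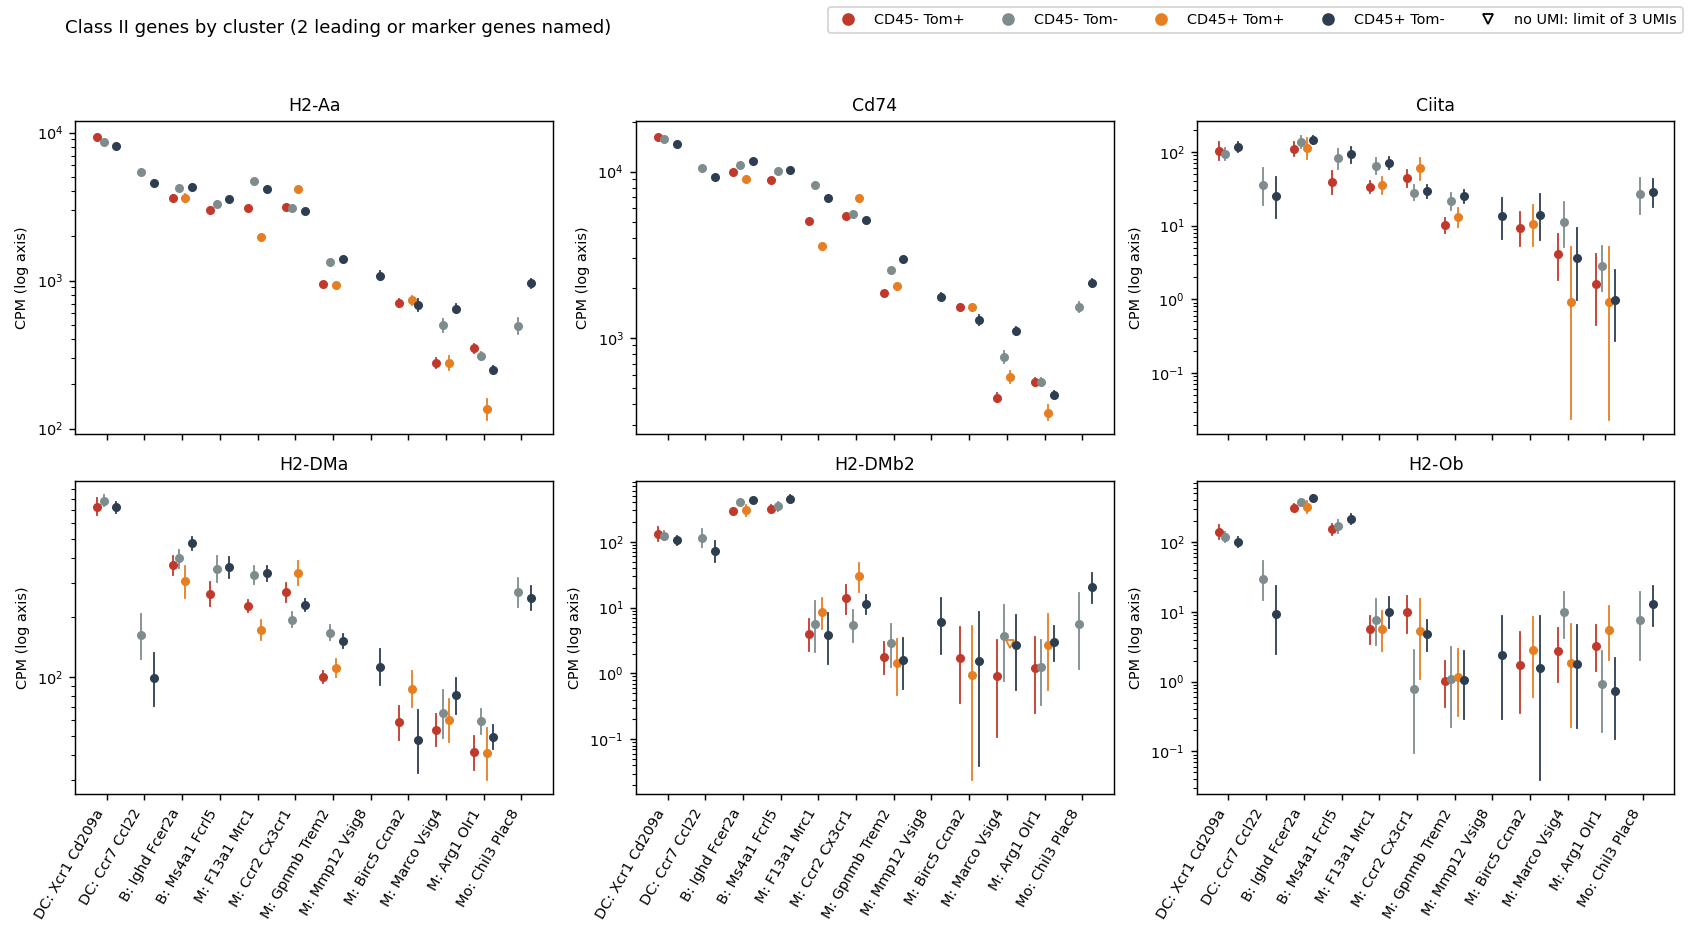
Level of 6 MHC class II genes (CPM, log axes) in the clusters of dendritic cell-like (DC), B cell-like (B), macrophage-like (M) and monocyte-like (Mo) cells, each named by 2 of its leading or marker genes, for clusters with at least 20 cells in a library. Bars are 95% Poisson intervals and open triangles mark the limit of 3 UMIs. H2-Aa, Cd74, Ciita and H2-DMa run from the F13a1/Mrc1 and Ccr2/Cx3cr1 clusters down to the Marco/Vsig4 and Arg1/Olr1 clusters, while H2-DMb2 and H2-Ob set B cell-like and dendritic cell-like clusters apart from macrophage-like ones.

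Within a class, class II varied from cell to cell. The summed level of H2-Aa, H2-Ab1, H2-Eb1 and Cd74 in single macrophage-like cells had a 10th percentile of 105.5, 115.8, 81.7 and 109.1 CPM, a median of 761.5, 1229, 678.2 and 1409 CPM and a 90th percentile of 20955, 25084, 18751 and 23088 CPM. Macrophage-like cells thus ran from levels seen in APC-like cells to those of B cell-like cells, whose 10th and 90th percentiles spanned 11448 to 28737 CPM over the libraries. A line at 1000 CPM, set after the values had been seen, was passed by all B cell-like cells and by 46.6%, 54.1%, 44.3% and 53.1% of macrophage-like cells. Between 15.5% and 19% of macrophage-like cells lay near the line, at 500 to 2000 CPM, so the line cuts a range and not a type. In the F13a1/Mrc1 cluster, 67.2%, 87.5%, 59.4% and 86.4% passed it. In the Marco/Vsig4 cluster 16%, 32.7%, 16.4% and 36.9% did.

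Macrophage-like cells above and below 1000 CPM were also compared in the members that did not set the line. Ciita was at 30.8 to 41.0 CPM above it and at 0.919 to 1.90 CPM below it over the 4 libraries. H2-DMa was at 216.5 to 245.1 CPM above and 34.1 to 43.7 CPM below, and H2-DMb1 at 195.1 to 257.5 CPM above and 37.8 to 44.95 CPM below. The median depth of the cells did not split the same way, at 17893 to 21967 UMIs above and 18140 to 23710 UMIs below. Macrophage markers summed to 8575 to 11222 CPM above and to 7654 to 10160 CPM below. The 9 B cell markers summed to 47.0 to 124.6 CPM above and to 19.7 to 32.5 CPM below, whose part in the difference was not tested. These values pool the clusters. Above the line, Ciita was at 48.2, 73.4, 60.9 and 84.4 CPM in the F13a1/Mrc1 cluster. It was at 18.8, 35.2, 5.11 and 4.97 CPM in the Marco/Vsig4 cluster, from 7, 9, 1 and 2 UMIs. In the Arg1/Olr1 cluster it was at 7.35, 6.95, 0 and 4.29 CPM, the 0 allowing up to 20.3 CPM. The part of cluster makeup was not tested.

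Mesothelial cell-like cells, which line the surface of the fat pad, had more of several class II genes than APC-like cells, the other stromal class described here. H2-Ab1, H2-Eb1 and H2-DMb1 were at least 2-fold higher than in APC-like cells in all 4 libraries, which makes 3 of 10, against 13.5% of 8569 genes in either direction. H2-DMb1 was at 31.9, 30.8, 28.2 and 25.6 CPM, a range above those of APC-like (10.8 to 13.6 CPM), T cell-like (7.27 to 10.1 CPM), mast cell-like (7.32 to 15.4 CPM) and lymphatic endothelial cell-like cells (6.40 to 12.1 CPM). Its DM partner H2-DMa was lower, at 11.2, 12.1, 9.95 and 9.58 CPM. Cd74 was at 499.3, 463.0, 335.0 and 422.3 CPM, overlapping the 210.3 to 373.3 CPM of T cell-like cells, and H2-Ab1 was at 130.6, 123.7, 112.4 and 107.4 CPM. Ciita had 3, 28, 3 and 30 UMIs, or 0.660, 1.87, 1.24 and 2.07 CPM. Macrophage markers summed to 201.4, 93.4, 142.6 and 81.2 CPM in these cells and B cell markers to 22.2, 9.42, 14.1 and 8.20 CPM. The 9 markers of type 1 conventional dendritic cells summed to 38.9, 54.6, 37.7 and 52.9 CPM, with Xcr1 and Clec9a at 0 in the Tom+ libraries, and the 8 markers of type 2 summed to 21.1, 24.1, 19.1 and 21.8 CPM. The part of these other cell types was not tested.

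The signal was uneven among mesothelial cell-like cells. Of these cells, 28%, 26.8%, 17.6% and 24.4% passed 1000 CPM of the 4 summed genes, and 26.8% to 32.4% lay near that line. In the 46, 136, 12 and 119 cells above it, H2-DMa was at 29.8, 35.0, 50.9 and 24.7 CPM, and in those below at 5.23, 4.99, 3.37 and 5.30 CPM. H2-DMb1 differed less in the library labelled CD45- Tom+, with 31.6 CPM above and 32.0 CPM below, than in the others, with 48.3, 59.9 and 43.4 CPM above and 25.4, 23.1 and 20.6 CPM below. Ciita had 0, 13, 0 and 18 UMIs above and 3, 15, 3 and 12 UMIs below, so that in the Tom+ libraries all of its UMIs lay below the line, and the zeros above allow up to 2.71 and 8.98 CPM. The cells above the line were shallower, with a median of 23743, 26072, 24402 and 27692 UMIs against 30771, 31647, 37116 and 31704 UMIs below. Msln, a mesothelial marker, was at 170.5, 424.5, 248.5 and 565.0 CPM above and 244.8, 506.2, 292.1 and 487.9 CPM below. Macrophage markers summed to 302.2, 102.4, 239.5 and 76.9 CPM above and to 168.9, 90.6, 127.1 and 82.4 CPM below, so they were higher above the line in the Tom+ libraries and close in the Tom- libraries. Their part was not tested.

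**Figure D4:**
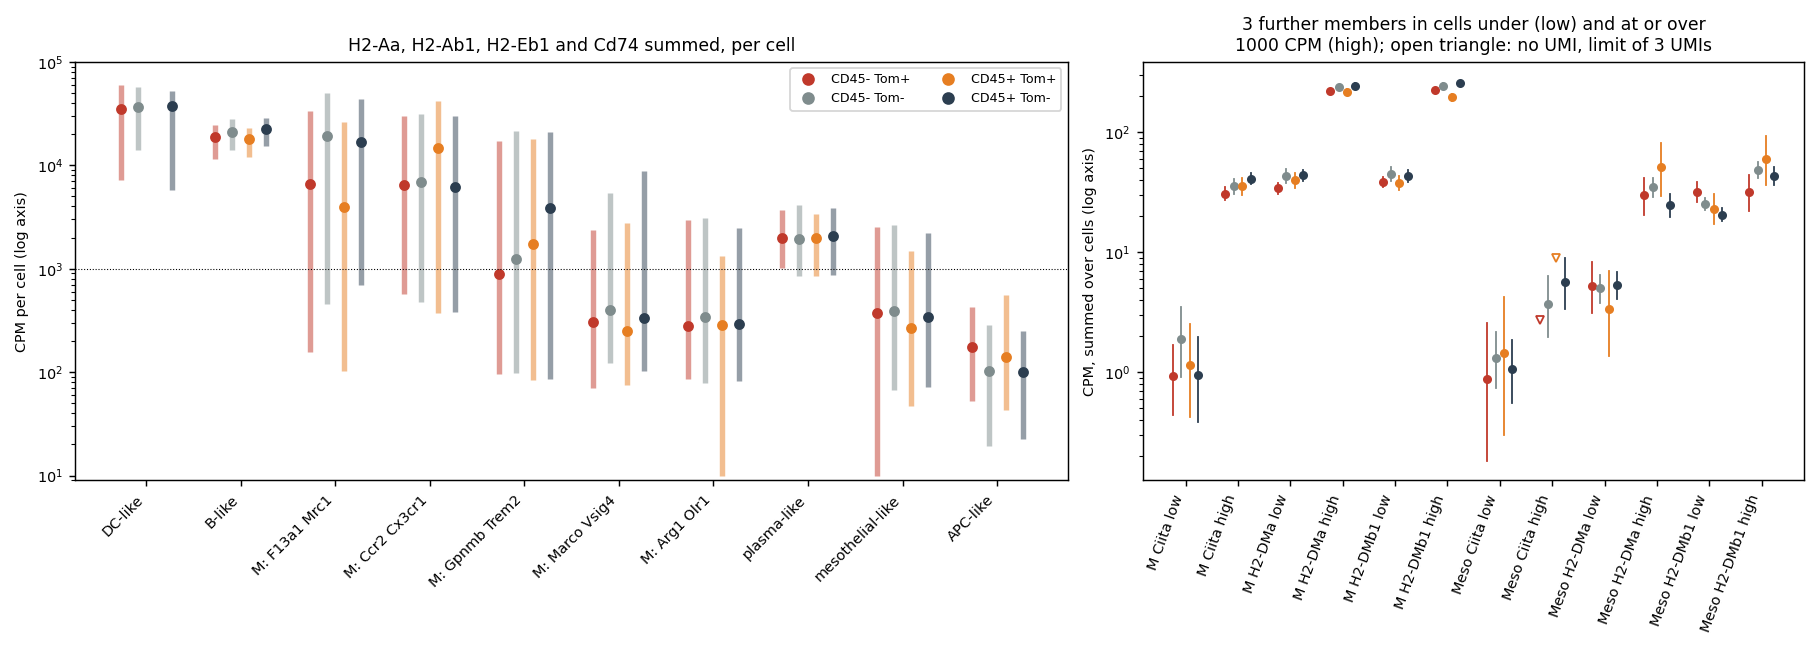
Left, summed CPM of H2-Aa, H2-Ab1, H2-Eb1 and Cd74 in single cells (log axis), as the median (point) and the 10th to 90th percentile (bar, drawn from 10 CPM where the percentile was below that) for each class or macrophage cluster and library, with a dotted line at 1000 CPM. Right, level of Ciita, H2-DMa and H2-DMb1 (CPM with 95% Poisson intervals, log axis) in macrophage-like (M) and mesothelial cell-like (Meso) cells under and at or over that line. B cell-like cells all lie above 1000 CPM, macrophage-like clusters span it, and Ciita in macrophage-like cells is at 30.8 to 41.0 CPM above it and at 0.919 to 1.90 CPM below it.

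APC-like cells, the adipose progenitors, had low class II levels in all 4 libraries. H2-Ab1 was at 41.6, 29.1, 41.0 and 25.9 CPM and H2-Eb1 at 42.6, 21.8, 30.96 and 23.2 CPM. Ciita had 4, 13, 1 and 23 UMIs in 261, 1530, 106 and 1713 cells. The 4 summed genes passed 1000 CPM in 3.83%, 0.588%, 8.49% and 0.642% of the cells. Cd74 set the Tom+ libraries apart most, at 159.1 and 179.0 CPM against 46.8 and 49.2 CPM in the Tom- libraries. The same split was present in plasma cell transcripts found in APC-like cells, with Jchain at 1548 and 2395 CPM against 83.7 and 81.3 CPM, and Igkc at 13862 and 22728 CPM against 689.3 and 1034 CPM. The ratio of Cd74 to H2-Aa in APC-like cells was 3.87 and 4.07 in the Tom+ libraries and 1.54 and 1.57 in the Tom- libraries. The part of plasma cell RNA in Cd74 of APC-like cells was not tested.

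Tom+ and Tom- libraries were compared within each CD45 label for classes of at least 50 cells in both, over members with at least 10 UMIs in the 2 libraries together. In B cell-like cells all 10 genes were lower in the Tom+ library under both labels. The median log2 ratio of Tom+ over Tom- was -0.27 for the libraries labelled CD45- and -0.39 for those labelled CD45+. Medians over all genes were -0.21 and -0.08. Most genes were thus lower too, and under CD45- the members lay close to that shift. None of the 10 was 2-fold lower under CD45-, where 4.8% of 6979 genes passed 2-fold, and H2-Oa alone did under CD45+, where 7.53% of 6989 genes did. H2-Oa was at 96.8 CPM against 202.3 CPM there, a log2 ratio of -1.06 (interval -1.5 to -0.65), and at 148.5 against 170.1 CPM under CD45-, a log2 ratio of -0.20 (interval -0.46 to 0.07). Plasma cell transcripts were again higher in the Tom+ libraries, with the 7 plasma cell markers summing to 7298 and 4416 CPM in B cell-like cells against 807.7 and 775.0 CPM, and their part was not tested.

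Macrophage-like cells of the Tom+ libraries also had lower class II, by less than 2-fold. The median log2 ratio was -0.33 under CD45- and -0.47 under CD45+, beside -0.05 and -0.06 over all genes. None of the 10 genes passed 2-fold under either label, where 2.15% and 1.95% of genes did. H2-Aa had log2 ratios of -0.36 (interval -0.38 to -0.33) and -0.55 (interval -0.58 to -0.51), and Ciita of -0.44 (interval -0.70 to -0.18) and -0.42 (interval -0.70 to -0.14). H2-Ob was the 1 gene of 10 that was not lower, at 0.35 (interval -0.35 to 1.10) and 0.06 (interval -0.68 to 0.77). The makeup of the class differed between the same libraries. The Gpnmb/Trem2 cluster was 30.5% and 25.8% of macrophage-like cells in the Tom+ libraries and 18.0% and 16.7% in the Tom- libraries, and the F13a1/Mrc1 cluster was 22.1% and 23.0% against 9.77% and 11.8%. The Ccr2/Cx3cr1 cluster was 8.50% and 8.13% against 27.7% and 25.8%, and the Arg1/Olr1 cluster 14% and 13.6% against 31.1% and 29.3%. With both libraries set to 1 mix of clusters, the median log2 ratio was -0.32 under CD45- and -0.18 under CD45+. The 7 plasma cell markers summed to 1945 and 2048 CPM in macrophage-like cells of the Tom+ libraries and to 324.3 and 288.7 CPM in those of the Tom- libraries, and their part was not tested. Without barcodes shared between libraries, the median was -0.07 under CD45- and -0.31 under CD45+.

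**Figure D5:**
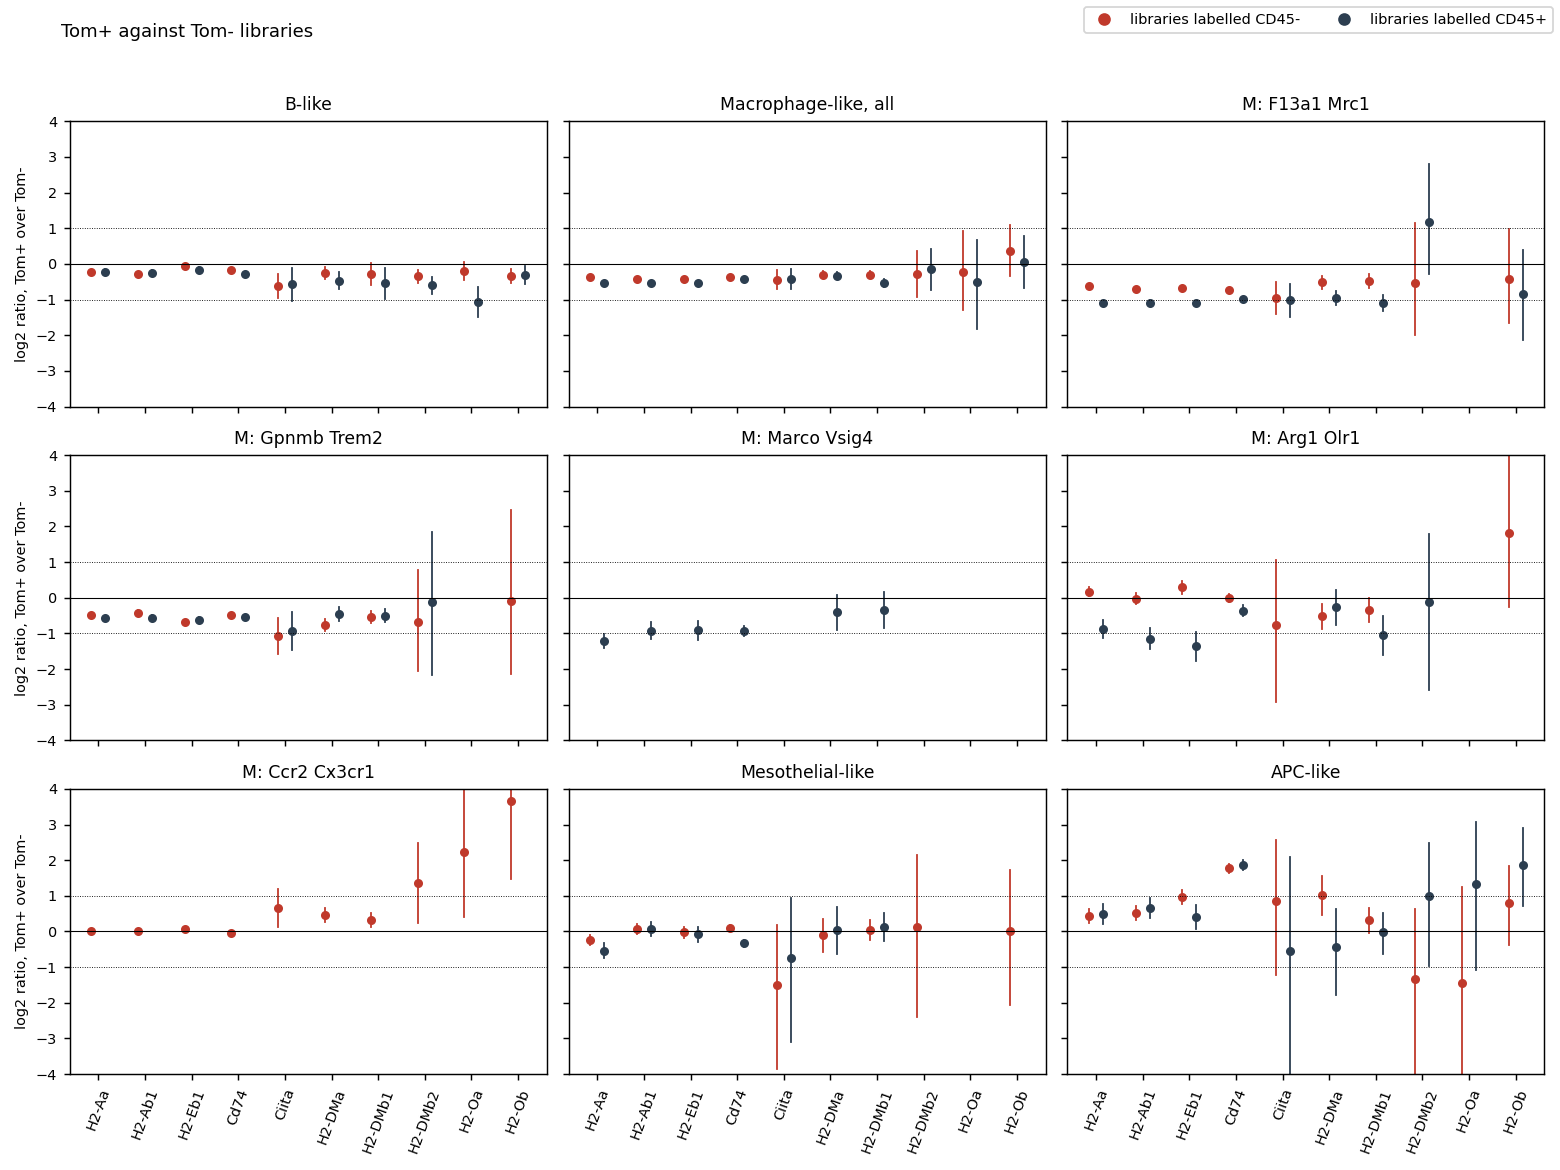
Log2 ratio of the level (CPM) in the Tom+ library over the Tom- library for each MHC class II gene, by class or macrophage cluster and CD45 label. Bars are 95% intervals of counting error and are cut at -4 and 4, and dotted lines mark 2-fold. Members with under 10 UMIs in the 2 libraries together are not drawn. The F13a1/Mrc1 and Gpnmb/Trem2 clusters lie below 0 for H2-Aa, H2-Ab1, H2-Eb1, Cd74, Ciita, H2-DMa and H2-DMb1 under both labels, the Arg1/Olr1 cluster under CD45- and the Ccr2/Cx3cr1 cluster lie on both sides of 0, and Cd74 is the highest of these 7 genes in APC-like cells.

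By cluster the difference was uneven. In the F13a1/Mrc1 cluster all 9 measured genes were lower in the Tom+ library under CD45-, with a median log2 ratio of -0.62, none of them by 2-fold (3.61% of 7513 genes), and 8 of 9 were lower under CD45+, with a median of -1.01, 5 of them by 2-fold or more and H2-DMb2 higher (4.19% of 7613 genes). Over all genes the medians were 0.005 under CD45- and 0.001 under CD45+. H2-Aa was at 3071 against 4732 CPM and at 1957 against 4178 CPM. Ciita was at 33.3 against 65.0 CPM, a log2 ratio of -0.96 (interval -1.41 to -0.51), and at 35.0 against 70.6 CPM, a log2 ratio of -1.01 (interval -1.48 to -0.55). The share of cells above 1000 CPM moved with this, as given above. H2-DMb2 was higher from 15 against 6 UMIs, with a log2 ratio of 1.16 (interval -0.28 to 2.82). This cluster had no counterpart in several of the other clusterings, as given below.

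The Gpnmb/Trem2 cluster showed the same direction. Its median log2 ratio was -0.55 under both labels, with all 9 and all 8 measured genes lower, beside -0.05 and -0.03 over all genes. Ciita passed 2-fold under CD45-, at 10.1 against 21.4 CPM, as did 1.02% of 7187 genes in either direction, and none of 8 did under CD45+ (1.21% of 7212 genes). H2-DMa was at 99.3 against 167.6 CPM and at 110.8 against 152.2 CPM. In the Marco/Vsig4 cluster, which had enough cells under CD45+ alone, all 6 measured genes were lower with a median of -0.92, and H2-Aa passed 2-fold at 277.7 against 646.8 CPM, beside 4.86% of 7484 genes. Over all genes the median there was -0.04. The median of the members was -0.28 with the looser filter, -0.29 with 4000 variable genes and -0.56 without shared barcodes. Under CD45-, where 125 and 49 cells were present, H2-Aa was at 277.9 against 498.8 CPM.

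The direction was less regular in the Arg1/Olr1 and Ccr2/Cx3cr1 clusters. Medians over all genes were -0.03 under CD45- and -0.10 under CD45+ in the former, and -0.08 under CD45- in the latter. The Arg1/Olr1 cluster had a median log2 ratio of -0.02 over 8 genes under CD45-, with H2-Ob higher by 2-fold from 8 against 3 UMIs (1.63% of 7340 genes), and of -0.87 over 7 genes under CD45+, with H2-Ab1, H2-Eb1 and H2-DMb1 lower by 2-fold or more (2.96% of 7271 genes). In the Ccr2/Cx3cr1 cluster, compared under CD45- alone, 9 of 10 genes were higher in the Tom+ library, with a median log2 ratio of 0.39, which was -0.02 after thinning and 0.07 over genes with at least 50 UMIs. Ciita was at 0.65 (interval 0.11 to 1.18), H2-DMa at 0.46 (interval 0.26 to 0.67) and H2-DMb1 at 0.32 (interval 0.14 to 0.51) on the log2 scale. H2-Aa was at 3157 against 3115 CPM and Cd74 at 5407 against 5522 CPM. Of its 10 genes H2-DMb2, H2-Oa and H2-Ob were higher by 2-fold or more (2.79% of 7278 genes), from 17, 9 and 12 UMIs against 14, 4 and 2. Under CD45+ its 34 Tom+ cells were below the minimum of 50, with H2-Aa at 4131 CPM against 2949 CPM. Whether these clusters differ from the others in the size of the Tom+ difference was not tested.

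Plasma cell-like cells could be compared under CD45+, where the median over 8 measured genes was -0.33 beside -0.17 over all genes, and H2-DMb1 and H2-DMb2 were lower by 2-fold or more from 56 and 22 UMIs against 19 and 8 (2.3% of 4438 genes). Cd74 differed little, with a log2 ratio of -0.03 (interval -0.08 to 0.01). In mesothelial cell-like cells the medians were 0.02 over 9 genes and -0.20 over 8 genes, with H2-Ob counted as the lowest of the 8. Ciita was lower by 2-fold under CD45- from 3 against 28 UMIs, a log2 ratio of -1.51 (interval -3.87 to 0.19), where 2.17% of 8475 genes passed 2-fold. H2-Ob had no UMI in the Tom+ library and 15 in the Tom- library under CD45+, where 3.93% of 8502 genes did, and 3 UMIs would have been 1.24 CPM against the 1.03 CPM measured.

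In APC-like cells 8 of 10 members were higher in the Tom+ library under CD45- and 7 of 10 under CD45+. The medians were 0.66 and 0.58, beside -0.03 and -0.05 over all genes, but the former was -0.06 with doublets kept and 0.07 without shared barcodes. Under CD45-, Cd74 and H2-DMa were higher by 2-fold or more and H2-DMb2 and H2-Oa lower, from 2 and 1 Tom+ UMIs, where 0.948% of 8231 genes passed 2-fold. Under CD45+, Cd74, H2-Oa and H2-Ob were higher by 2-fold or more, where 0.855% of 8185 genes did, and H2-Oa rested on 3 UMIs with an interval of -1.08 to 3.08. Cd74 had log2 ratios of 1.77 (interval 1.65 to 1.88) and 1.86 (interval 1.72 to 2.01), beside which H2-Aa had 0.44 (interval 0.23 to 0.64) and 0.50 (interval 0.21 to 0.77). Macrophage markers in APC-like cells summed to 437.1 and 199.9 CPM in the Tom+ and 166.9 and 166.6 CPM in the Tom- libraries, and B cell markers to 33.6 and 68.6 CPM against 9.18 and 12.3 CPM. Their part and that of the plasma cell transcripts given above was not tested.

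Other genes of the pathway were read from a list, of which 42 were in the table. Of the RFX subunits, which bind the X box, Rfxap was at 32.1 to 38.6 CPM in dendritic cell-like, 24.9 to 27.8 CPM in macrophage-like and 14.9 to 18.3 CPM in APC-like cells, and Rfx5 was at 12.0 to 17.5 CPM in mesothelial cell-like cells and 4.02 to 12.1 CPM in dendritic cell-like cells. Nfya, a subunit of NF-Y, which binds the Y box, was at 25.4 to 44.1 CPM in dendritic cell-like, 33.4 to 36.3 CPM in macrophage-like, 17.6 to 19.02 CPM in APC-like and 4.30 to 5.71 CPM in plasma cell-like cells. Irf8 and Spi1, factors of the myeloid and B lineages that act on Ciita, were at 493.9 to 846.0 and 261.0 to 394.1 CPM in dendritic cell-like cells and at 8.95 to 18.0 and 2.76 to 11.6 CPM in APC-like cells. Ctss, the protease that trims the invariant chain in antigen-presenting cells, reached 2140 to 2470 CPM in macrophage-like cells, above the 656.2 to 809.8 CPM of dendritic cell-like and 295.4 to 404.9 CPM of B cell-like cells. March1, a ubiquitin ligase that removes class II from the surface, was at 62.9 to 100.5 CPM in B cell-like and 37.4 to 41.5 CPM in dendritic cell-like cells. H2-Eb2 was found mainly in B cell-like (35.3 to 67.9 CPM) and dendritic cell-like cells (28.1 to 47.6 CPM). B2m, the light chain of MHC class I, was high throughout, at 1272 to 1651 CPM even in APC-like cells.

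The same pathway genes were compared between the Tom+ and Tom- libraries, with the shares of all genes past 2-fold as given above for each class. Irf4 was higher in macrophage-like cells of the Tom+ library under both labels, at 25.9 against 9.49 CPM and at 25.3 against 10.2 CPM, and it is also a gene of plasma cells, where it stood at 161.4 to 228.1 CPM. It and Cd80, at 8.19 against 16.5 CPM under CD45-, were the genes past 2-fold of 34 tested under each label. In B cell-like cells Rfx5, Cd40, Icosl and Nlrc5 were lower by 2-fold or more under CD45-, which makes 4 of 38 tested beside 4.8% of all genes, with Rfx5 at 10.2 against 28.8 CPM and Cd40 at 18.0 against 49.9 CPM. Under CD45+ the 2 libraries were close for both, at 21.5 against 20.9 CPM and 26.9 against 29.4 CPM, and Irf1 alone of 37 passed 2-fold, higher at 77.0 against 37.99 CPM. Of 27 and 28 genes tested in APC-like cells, Ctss was higher under both labels, at 65.8 against 16.8 CPM and 30.6 against 14.1 CPM, and Irf4 under CD45+, at 19.02 against 1.35 CPM. Ctss stood at 2140 to 2470 CPM in macrophage-like cells, whose markers also summed higher in APC-like cells of the Tom+ libraries, as given above. The part of macrophage RNA in Ctss and of plasma cell RNA in Irf4 was not tested. Lag3 was higher in plasma cell-like cells, at 19.01 against 6.66 CPM, and none of 27 genes passed 2-fold in mesothelial cell-like cells under either label.

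Genes with the most similar pattern to the summed members were ranked by Pearson's r of log2(CPM + 1) over the 14 classes, as a description. Hdac9 came first (r = 0.93), followed by Cd83 (0.88), Wdfy4 (0.87), Ryr1 (0.86), Ly86 (0.85), Pld4 (0.85), Arl5c (0.84) and Napsa (0.83). The members themselves had r of 0.70 for H2-DMb2 to 0.99 for Cd74. Cd83 is a surface protein of mature dendritic cells known to stabilise class II there. Averaged over the 4 libraries, it was at 476.5 CPM in dendritic cell-like, 321.6 CPM in B cell-like, 199.8 CPM in macrophage-like and 6.66 CPM in APC-like cells. These averages include the library with 15 dendritic cell-like cells. Wdfy4, a gene of cross-presenting dendritic cells, was at 330.7, 169.4, 47.4 and 2.05 CPM in the same classes. Wdfy4 and Napsa were among the markers that named dendritic cell-like clusters, and the classes share libraries and depth.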

How the data were processed

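Stromal vascular cells of gonadal adipose tissue were sorted and profiled by the authors with 10x Genomics Chromium 3′ v3.1 chemistry. Cell Ranger 3.0.2 with mm10 was used, and the authors deposited 1 matrix of raw UMI counts per library, without normalization. Following the filter of the study, barcodes needed over 1000 but fewer than 7000 genes and a mitochondrial share below 8%, and 1104 doublets scored by Scrublet (scanpy 1.11.5) were removed, set at 0.8% per 1000 barcodes. Clustering used 2000 variable genes, 30 components, 15 neighbours and Leiden resolution 2 (leidenalg 0.10.2) without integration. A marker counted as raised at 20 CPM and 4 times the median cluster, with at least 3 needed for a name. These thresholds and the 1000 CPM line were set after the data had been seen, and the members, lists and comparisons were chosen with earlier results of these data known. Counts were summed per class and library as CPM with exact Poisson intervals (scipy 1.17.1), shares carry exact Clopper-Pearson intervals, and log2 ratios the conditional exact interval. Where no UMI was found, the limit is 3 UMIs per class and library. All intervals cover counting error only. Calls mean 2-fold or more, with the background taken over genes of 10 CPM or more on average. Medians over members keep a gene without a UMI in 1 library as an extreme value, while medians over all genes leave such genes out. The study tested cells with a Wilcoxon test, which was not used because cells of 1 library are not replicates. Named genes were the members, the pathway list and the 8 genes of most similar pattern. Leading genes of clusters were named after their values were seen. The computation was checked on simulated counts. Alternatives were kept doublets, a looser filter (500 genes, 20% mitochondrial UMIs), Leiden resolution 1, 4000 variable genes, means over cells, thinning to 2000 UMIs, removal of shared barcodes, 1 mix of clusters and a minimum of 50 UMIs per member.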

Additional observations from a re-analysis of the deposited data

Results flagged for a closer look

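In 3 cases the log2 ratio of Tom+ over Tom- had opposite signs under the CD45- and CD45+ labels, with an interval that left out 0 each time. Each rests on 1 library per group, and the differences were not tested. Cd74 in mesothelial cell-like cells was at 0.11 under CD45- and -0.33 under CD45+, a difference of 0.44. H2-Aa in the Arg1/Olr1 macrophage-like cluster was at 0.17 and -0.87, a difference of 1.04. H2-Eb1 in the same cluster was at 0.30 and -1.36, a difference of 1.65, with the Tom+ value under CD45+ resting on 61 UMIs in 57 cells.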

How the results depend on the processing

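No paired analysis was possible because each group was 1 library and no test gave a p-value. The count of 39 of 40 highest levels in dendritic cell-like or B cell-like cells was 35 to 40 under the 7 alternatives run. In macrophage-like cells the median log2 ratio stayed negative but moved under CD45- to -0.18 with looser barcode filters and -0.073 without shared barcodes, and under CD45+ to -0.22 with looser filters, -0.31 without shared barcodes, -0.27 as means over cells and -0.18 with 1 mix of clusters. In APC-like cells under CD45- it moved from 0.66 to -0.063 with doublets kept and to 0.066 without shared barcodes. Ciita in mesothelial cell-like cells under CD45-, on 3 Tom+ UMIs, went from -1.51 to 1.41 without shared barcodes. By cluster, the median of the Gpnmb/Trem2 cluster lay at -0.79 with looser filters under CD45-, that of the Arg1/Olr1 cluster under CD45+ at -0.13 with Leiden resolution 1, that of the Marco/Vsig4 cluster under CD45+ at -0.28 with looser filters, and that of the Ccr2/Cx3cr1 cluster at -0.02 after thinning. Some clusters had no counterpart in an alternative and gave no value there. Of all 1730 alternative levels of members, 611 lay outside the counting interval of the main value. Of 1018 alternative log2 ratios of members, 260 did so, and 915 kept their sign. Of 954 alternative levels over 50 CPM, 910 lay within 1.5-fold, and most of the others were in monocyte-like cells. The causes were not tested. Depth limits the DO genes and H2-DMb2 outside B cell-like and dendritic cell-like cells, and Ciita in stroma.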

Other observations

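A cluster of 387 cells with both APC and mesothelial markers, led by Cxcl13, Cxcl5 and Saa3 and left without a name, had H2-Aa at 128.5 CPM, H2-Ab1 at 168.0 CPM, Cd74 at 477.0 CPM and H2-DMb1 at 39.6 CPM. The 3 clusters of mesothelial cell-like cells included 1 of 322 cells at the same H2-DMb1 level, 39.6 CPM, and 1 of 852 cells at 25.4 CPM. A cluster of 51 APC-like cells led by the interferon-induced genes Ifit1, Ifit3 and Cxcl9 had H2-Aa at 29.6 CPM, H2-Ab1 at 27.9 CPM and Cd74 at 62.6 CPM, within the range of the other APC-like clusters. A cluster of 28 epithelial cell-like cells led by Gpx5 and Lcn8, genes of the epididymis, came from the Tom+ libraries alone. It had H2-DMa at 50.2 CPM and H2-DMb2 at 38.6 CPM beside H2-Aa at 16.4 CPM, with no UMI of Ciita or H2-Oa. In the 13 cells of the group 2 innate lymphoid cell-like class, H2-Aa was at 384.2 CPM and Cd74 at 694.5 CPM, with no UMI of Ciita.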
